A study of Mus musculus with 12 samples.

Results

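Galnt2 encodes a polypeptide GalNAc-transferase, and 10 genes of its family (Galnt1, Galnt2, Galnt3, Galnt4, Galnt7, Galnt10, Galnt11, Galnt12, Galnt16 and Galnt18) are described here across quiescent satellite cells with and without Gli3. They were taken by symbol from the 25093 genes of the count table. Galnt2 was chosen by its estimated counts, which differed strongly between the genotypes in these same libraries, so its levels and its genotype difference are a description and carry no test. The 9 relatives were taken as its comparison, and the table holds 7 further genes of the family.

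The study sequenced polyadenylated RNA of satellite cells, the stem cells of skeletal muscle, sorted from mouse hindlimb muscles, in 12 libraries. Quiescent satellite cells (QSCs; α7-INTEGRIN+, CD34+ and negative for CD31, CD45, SCA1 and CD11b) came from uninjured muscles of tamoxifen-treated mice aged 3 to 4 months, with 3 libraries per genotype. Control mice were Pax7-CreERT2/+; Gli3+/+; R26R-YFP, written Gli3+/+ below, and Gli3-cKO mice were Pax7-CreERT2/+; Gli3fl/fl; R26R-YFP, written Gli3Δ/Δ. The Pax7 CreERT2 allele, the YFP reporter and tamoxifen were thus common to both groups, and Gli3 recombination was limited to cells in which the Pax7 locus was active. Each QSC library pooled the hindlimb muscles of 2 to 3 mice of mixed genetic background. The 6 libraries of activated satellite cells (ASCs), sorted 3 days after cardiotoxin injury, were not analysed here, because their columns could not be matched to a labelled sample and 2 of them have a title and a genotype label that disagree.

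Polypeptide GalNAc-transferases are Golgi enzymes that take N-acetylgalactosamine (GalNAc) from UDP-GalNAc and attach it to serine or threonine of proteins, the first step of mucin-type O-glycosylation. Some members act first on bare peptide, others prefer a substrate that already carries GalNAc, and later enzymes extend the sugar with galactose, N-acetylglucosamine and sialic acid. In muscle the best known O-glycoprotein is dystroglycan, the laminin receptor of the sarcolemma, which carries O-mannose glycans as well as O-GalNAc.

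The library totals ran from 39556784 to 65750131 estimated counts. Levels are given as CPM, counts relative to the library total after TMM scaling, ± SD over n = 3 libraries. Summed markers of satellite cells ran from 4522 to 6973 CPM in Gli3+/+ and from 4730 to 5060 CPM in Gli3Δ/Δ libraries, with no marker at 0 in all libraries. Gli3 itself was counted at 11.2, 9.71 and 9.75 CPM in the Gli3+/+ libraries and at 9.54, 10.5 and 6.25 CPM in the Gli3Δ/Δ libraries. The gene count covers all exons and does not resolve the floxed one, so it is no check of the genotype labels. A gene is called here at an adjusted p under 0.05 from edgeR's quasi-likelihood test over all 25093 genes and a fold change of at least 1.2. By this rule 88 genes were called, or 0.351% of those tested, and 47 of them (0.187%) were higher in Gli3Δ/Δ. The p-values measure the spread between these pooled libraries.

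Galnt2 (ENSMUSG00000089704.9) lies on the plus strand at chr8:124231391-124345724 of GRCm38. A second annotated gene, Gm20388 (ENSMUSG00000092329.1, chr8:119910841-124345722), covers it on the same strand and is annotated as protein coding. Each has a coding transcript of 16 exons. Exon 1 of Gm20388-201 is the end of exon 1 of Usp10-202, a transcript of the deubiquitinase gene Usp10, and lies 4320 kb upstream of Galnt2 with 205 annotated genes in between. After exon 1, the 3854 bases of Galnt2-201 and of Gm20388-201 were identical, so only the exon 1 end tells these transcripts apart. The splice junctions are shown because they carry that difference. They give the last 21 bases of exon 1 in capitals and the first 30 bases of exon 2 in lower case, 5′ to 3′ on the plus strand of GRCm38, from exon 1 ending at 124231649 (Galnt2-201) or 119910939 (Gm20388-201 and Usp10-202) to exon 2 starting at 124295358 (Galnt2-201 and Gm20388-201) or 119931849 (Usp10-202).
Galnt2-201: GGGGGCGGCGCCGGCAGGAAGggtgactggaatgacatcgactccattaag
Gm20388-201: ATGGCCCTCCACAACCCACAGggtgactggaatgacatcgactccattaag
Usp10-202: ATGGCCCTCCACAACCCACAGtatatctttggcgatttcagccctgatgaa
The lower-case parts of Galnt2-201 and Gm20388-201 are the same, and the capitals of Gm20388-201 are those of Usp10-202.

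**Figure D1:**
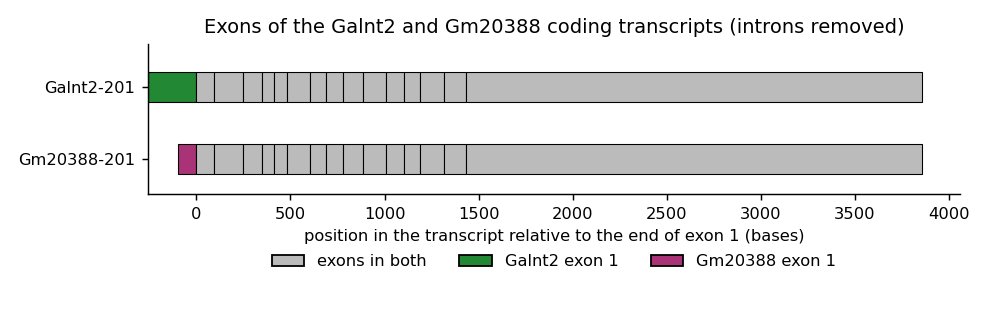
Exons of Galnt2-201 and Gm20388-201 drawn to scale with introns removed, with position in bases from the end of exon 1 on the x axis. Grey exons are identical in both transcripts, and exon 1 is 259 bases in Galnt2-201 (green) and 99 bases in Gm20388-201 (purple).

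Exon 1 made up 6.3% of the 4113 bases of Galnt2-201 and 2.5% of the 3953 bases of Gm20388-201, as the plot of both transcripts shows. Cut into all words of 31 bases, 3826 of the 4083 words of Galnt2-201 (93.7%) also occurred in Gm20388-201. The remaining 257 words occurred in no transcript of any other gene. Of the words of Gm20388-201, 97 were not in Galnt2-201, and 28 were in no transcript of any other gene. A read from exons 2 to 16 therefore fits both genes, and the quantifier divided it by its estimate of the abundance of each. Galnt2 has 4 annotated transcripts, and over all of them 3826 of its 4305 words (88.9%) were shared with another gene. That share was above that of 94.8% of the genes in the table. Words found only in Galnt2 thus also lie in its transcripts other than Galnt2-201.

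Galnt2 was counted at 3.43, 3.57 and 4.18 CPM across the 3 control (Gli3+/+) QSC libraries and at 27.5, 35.5 and 24.7 CPM in the 3 Gli3Δ/Δ libraries. Every Gli3Δ/Δ library lay above every Gli3+/+ library. The means were 3.73 ± 0.398 and 29.2 ± 5.58 CPM, a ratio of 7.85, and the fitted log2 fold change was 2.97 ± 0.196 (SE). In estimated counts, the Gli3+/+ libraries held 138, 241 and 180 and the Gli3Δ/Δ libraries 1439, 2378 and 1258.

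Gm20388 was counted at 98.1, 94.8 and 117 CPM in Gli3+/+ QSCs and at 70.3, 85.4 and 97.8 CPM in Gli3Δ/Δ QSCs. Its groups overlapped, with means of 103 ± 11.8 and 84.5 ± 13.7 CPM and a log2 fold change of −0.29 ± 0.16 (SE). Its estimated level thus exceeded that of Galnt2 in all 6 libraries, although both transcripts have nearly the same length. Both estimates rest on how the quantifier divided shared reads. Whether Gm20388 RNA was the more abundant was not tested.

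The sum of the counts of both genes does not depend on how shared reads were divided between them. Summed, they gave 102, 98.4 and 121 CPM in the Gli3+/+ libraries and 97.8, 121 and 123 CPM in the Gli3Δ/Δ libraries. These groups overlapped, the means of 107 ± 12.2 and 114 ± 13.8 CPM differed by less than their spread, and the log2 fold change was 0.089 ± 0.148 (SE). Gm20388 made up most of each sum, so the sums cannot tell a change in Galnt2 RNA from a different division of reads. The share of the summed count that was given to Galnt2 did not overlap between the groups. It was 3.38%, 3.64% and 3.45% in Gli3+/+ QSCs and 28.1%, 29.3% and 20.2% in Gli3Δ/Δ QSCs, or 3.49 ± 0.133% against 25.9 ± 4.96%.

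**Figure D2:**
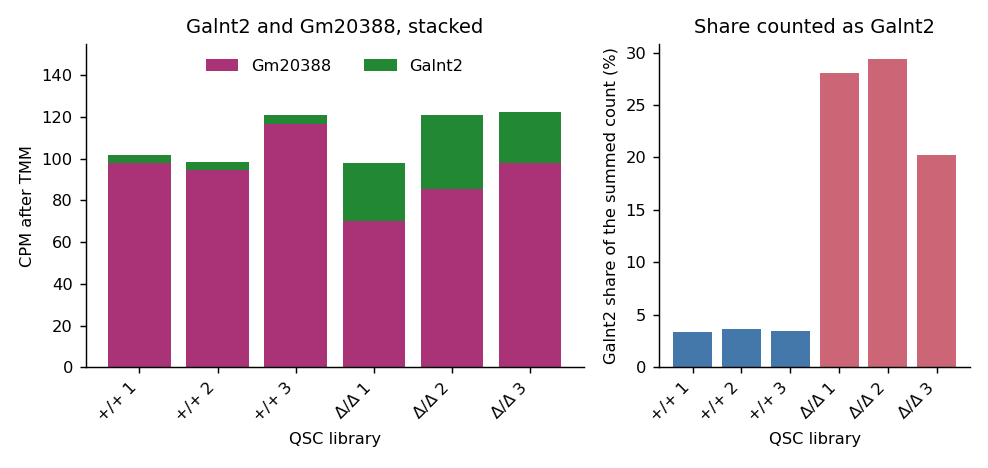
Left, CPM of Gm20388 (purple) and Galnt2 (green) stacked in each QSC library, with 1 bar per library. Right, percent of the summed count that was given to Galnt2, in blue for Gli3+/+ and red for Gli3Δ/Δ libraries. The stacked heights ran from 97.8 to 123 CPM with overlapping groups, while the share was at most 3.64% in Gli3+/+ and at least 20.2% in Gli3Δ/Δ libraries.

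The deposited table holds counts per gene and not per exon, so whether RNA from the Galnt2 exon 1 itself differed between the genotypes was not tested. Usp10, which contains the Gm20388 exon 1 and was singled out after its values were seen, was at 56.9, 50.9 and 98.8 CPM in Gli3+/+ and 66.7, 61.0 and 63.7 CPM in Gli3Δ/Δ QSCs. Its groups overlapped, and its log2 fold change was −0.11 ± 0.235 SE. The nearest genes of the table on either side of Galnt2 were not called either. Urb2 was at 32.4 ± 11.3 and 34.96 ± 4.78 CPM, Taf5l at 39.4 ± 12.5 and 38.5 ± 3.33, Cog2 at 36.1 ± 1.53 and 34.6 ± 1.71, and Pgbd5 was under 0.35 CPM in every library (adjusted p from 0.835 to 1.00 from edgeR, Gli3+/+ first).

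Summed markers of Schwann cells, the glia of peripheral nerve, were lower in every Gli3Δ/Δ than in every Gli3+/+ library. Their 4 markers summed to between 68.2 and 99.9 CPM in Gli3+/+ and between 32.4 and 47.7 CPM in Gli3Δ/Δ libraries. None of the 4 was at 0 in all libraries and 0 were called with edgeR, and their part in the difference of Galnt2 was not tested. In bulk RNA, fewer cells of a type and less RNA per cell cannot be told apart. Summed markers of macrophages (11.2 to 24.6 against 10.03 to 15.7 CPM) and endothelial cells (150 to 208 against 131 to 161 CPM) overlapped between the genotypes. So did those of fibro-adipogenic cells (171 to 414 against 208 to 281 CPM) and mural cells (137 to 393 against 171 to 204 CPM). Sums for lymphocytes, myofibers and the dissociation response overlapped as well. Among single genes, 13% of all tested did not overlap between the genotypes.

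Per kb of annotated exon, Galnt2 ranked 8th of the 10 members in Gli3+/+ QSCs, at 0.87 ± 0.0929 CPM per kb. Galnt18 (13.8 ± 2.76) and Galnt1 (13.0 ± 1.21 CPM per kb) were highest and overlapped each other. They were followed by Galnt11 (7.38 ± 0.514), Galnt4 (5.39 ± 0.242) and Galnt16 (4.70 ± 0.372 CPM per kb), whose libraries did not overlap between neighbours in this order. Galnt10 (2.49 ± 1.15) and Galnt7 (1.87 ± 0.218 CPM per kb) overlapped, Galnt12 stood at 0.266 ± 0.139, and Galnt3 at 0.0222 ± 0.00578 CPM per kb. In Gli3Δ/Δ QSCs Galnt2 was at 6.83 ± 1.30 CPM per kb. With the count of Gm20388 added, the level per kb of Galnt2 exons was 25.0 ± 2.85 CPM in Gli3+/+ and 26.6 ± 3.23 in Gli3Δ/Δ QSCs. Both lay above the level of every other member in Gli3+/+ cells. The Gm20388 count can also hold reads of its own exon 1, which is not a Galnt2 exon. The place of Galnt2 in the family's order thus changed with whether the count of Gm20388 was added.

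**Figure D3:**
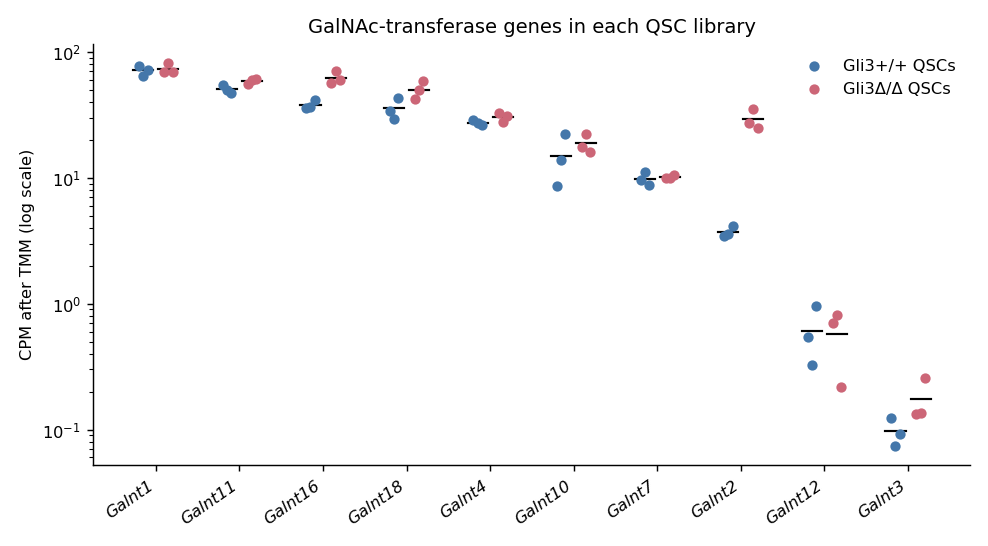
CPM after TMM of the 10 members in each QSC library on a log axis, with Gli3+/+ in blue and Gli3Δ/Δ in red, 1 point per library and a bar at each mean. Galnt2 runs from 3.43 to 4.18 CPM in Gli3+/+ and from 24.7 to 35.5 CPM in Gli3Δ/Δ libraries, and levels of different genes are not compared on this scale, which ignores gene length.

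Of the members other than Galnt2, 0 of 9 were called with edgeR, and 2 had an unadjusted p under 0.05 (Galnt16 and Galnt18). Over all genes tested, 88 (0.351%) were called and 1785 (7.11%) had an unadjusted p under 0.05 with edgeR. All 10 members are accounted for, with 8 at a mean of at least 1 CPM. The mean was higher in Gli3Δ/Δ QSCs for 8 of the 9, also when scaled by library total or by DESeq2 size factors. Over the 25093 genes tested it was higher for 11298 with TMM, 12393 by library total and 11468 by DESeq2 size factors. The median log2 fold change of the 9 was 0.22, where the median over all genes tested was −0.031. The groups did not overlap for 3 of the 9 (Galnt3, Galnt11 and Galnt16), each time with Gli3Δ/Δ higher. Over all genes tested they did not overlap for 13%, and for 6.39% with Gli3Δ/Δ higher.

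Galnt16, which belongs to the same subfamily of transferases as Galnt2, had the largest genotype difference among the other members above 1 CPM. It was counted at 35.8, 36.5 and 41.3 CPM in Gli3+/+ QSCs and at 57.1, 71.0 and 59.4 CPM in Gli3Δ/Δ QSCs. Every Gli3Δ/Δ library lay above every Gli3+/+ library. The log2 fold change was 0.72 ± 0.14 SE with an adjusted p of 0.0982 from edgeR, which missed the threshold. DESeq2 called it, with an adjusted p of 0.00102 and a log2 fold change of 0.73, and over the alternatives the adjusted p ran from 0.00102 to 0.362. Of the 31-base words of Galnt16, 7.6% were shared with another gene.

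Among the other enzymes that act early on bare peptide, Galnt1, a broadly expressed member, was at 71.5 ± 6.68 and 73.6 ± 6.87 CPM, with a log2 fold change of 0.042 ± 0.136 SE (edgeR adjusted p = 0.988). Galnt11, known to glycosylate LDL receptor family members and NOTCH1, was counted at 54.4, 49.8 and 47.5 CPM in Gli3+/+ and at 55.3, 60.0 and 61.2 CPM in Gli3Δ/Δ libraries. Its groups did not overlap, with 54.4 and 55.3 CPM as the nearest values, and its log2 fold change of 0.22 ± 0.125 SE had an adjusted p of 0.822 from edgeR. Galnt3, the transferase that protects the hormone FGF23 from cleavage, had only 5, 5 and 4 counts in Gli3+/+ and 7, 9 and 13 counts in Gli3Δ/Δ libraries (log2 fold change 0.84 ± 0.749 SE, edgeR adjusted p = 0.905).

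None of the 4 members that prefer GalNAc-bearing substrates was called. Galnt4 was at 27.4 ± 1.23 and 30.3 ± 2.55 CPM, with a log2 fold change of 0.14 ± 0.133 SE. Galnt7, at 9.82 ± 1.15 and 10.1 ± 0.349 CPM, had one of 0.046 ± 0.166 SE. Galnt10 had the widest spread of these 4 in CPM, with 8.57, 13.8 and 22.2 CPM in Gli3+/+ and 17.7, 22.5 and 16.05 CPM in Gli3Δ/Δ libraries. Its groups overlapped, at a log2 fold change of 0.34 ± 0.311 SE. Galnt12 had 22, 22 and 41 counts against 37, 54 and 11, with the lowest library in Gli3Δ/Δ cells. Their adjusted p ran from 0.910 to 1.00 (edgeR). Part of the Galnt4 exons overlaps Poc1b, a centriole gene, and 7.73% of its 31-base words were shared.

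Galnt18, a member of a divergent subfamily, was counted at 33.8, 29.5 and 43.4 CPM in Gli3+/+ and at 42.1, 49.6 and 58.4 CPM in Gli3Δ/Δ QSCs. The highest Gli3+/+ library lay above the lowest Gli3Δ/Δ library. Its log2 fold change was 0.49 ± 0.185 SE (edgeR adjusted p = 0.602).

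The 7 further family genes of the table were not called (0 of 7 with edgeR, beside 0.351% of all genes). At an unadjusted p under 0.05 there were 0, beside 7.11% of all genes, and their median log2 fold change was 0.078. Galnt15 had the highest level per kb of the 17, at 32.8 ± 18.1 CPM per kb in Gli3+/+ cells, with 110, 334 and 179 CPM in the 3 Gli3+/+ libraries and 172, 156 and 247 CPM in the Gli3Δ/Δ libraries. Galnt17 was at 99.4 ± 14.2 and 105 ± 7.24 CPM. Galnt5, Galnt6, Galnt9, Galnt14 and Galntl6 were under 0.4 CPM in every library, and Galnt6 had 3, 1 and 4 counts against 14, 11 and 10. All 17 genes together summed to 560 ± 92.5 CPM in Gli3+/+ and 632 ± 54.8 CPM in Gli3Δ/Δ QSCs, and these sums overlapped. Without Galnt2 the sums were 556 ± 92.4 and 602 ± 57.7 CPM.

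**Figure D4:**
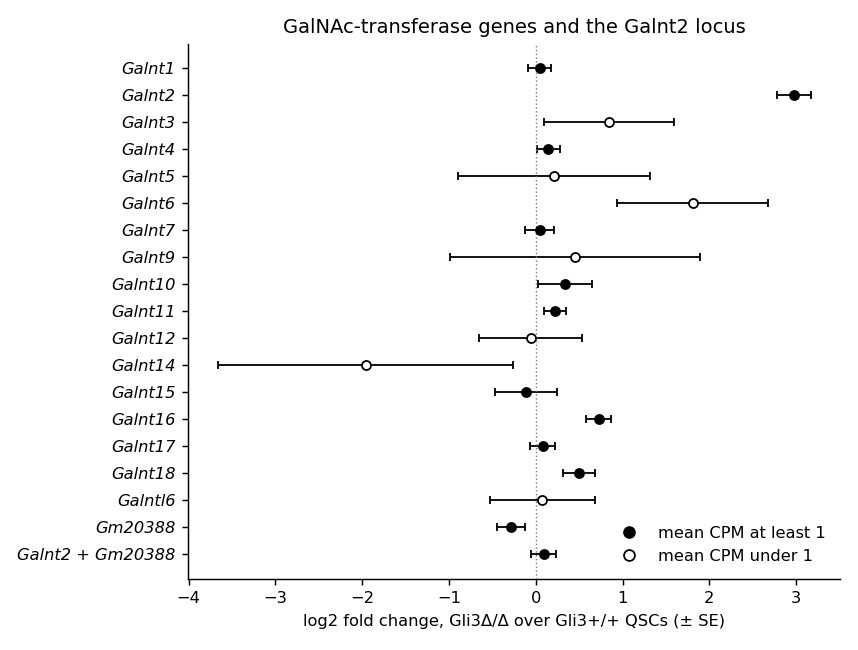
Fitted log2 fold change (Gli3Δ/Δ over Gli3+/+ QSCs) ± SE of the 17 family genes, of Gm20388 and of the summed count of Galnt2 and Gm20388, with filled points for a mean of at least 1 CPM and open points below it. Galnt2 stands at 2.97 and the summed count at 0.089, and the other filled family points run from −0.12 to 0.72.

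Enzymes that build on the first GalNAc were measured by 15 genes of core formation, extension and sialylation. Of these, 0 were called with edgeR and 2 had an unadjusted p under 0.05, beside 0.351% and 7.11% of all genes. Their median log2 fold change was −0.20, and 5 of 15 had a higher mean in Gli3Δ/Δ QSCs, beside 11298 of the 25093 genes tested. C1galt1, the galactosyltransferase that makes the core disaccharide, was at 43.1 ± 4.49 and 44.9 ± 2.65 CPM. The sialyltransferase genes St3gal2 (133 ± 13.1 and 122 ± 26.4 CPM) and St3gal1 (99.6 ± 25.9 and 105 ± 23.7 CPM) differed by less than their spread. St6galnac2, a sialyltransferase of O-GalNAc singled out after its values were seen, was at 6.28, 17.2 and 7.01 CPM in Gli3+/+ and 2.31, 4.37 and 4.39 CPM in Gli3Δ/Δ libraries. It had a log2 fold change of −1.46 ± 0.421 SE (edgeR adjusted p = 0.388 and 0.0289 from DESeq2).

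Of 9 genes that supply UDP-GalNAc and the other donors, 0 were called with edgeR, beside 0.351% of all genes. Their median log2 fold change was 0.0083, and 1 had an unadjusted p under 0.05, beside 7.11% of all genes. That gene was Uap1, which makes UDP-GlcNAc and UDP-GalNAc, at 49.7, 45.2 and 63.7 CPM in Gli3+/+ and 39.7, 34.9 and 36.3 CPM in Gli3Δ/Δ libraries (log2 fold change −0.52 ± 0.158 SE, edgeR adjusted p = 0.427). Gfpt1, which encodes the rate-limiting enzyme of the hexosamine pathway, was at 51.9 ± 7.44 and 52.2 ± 2.34 CPM. Its paralog Gfpt2 was at 55.6 ± 13.2 and 52.2 ± 19.7 CPM.

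Among 17 genes of proteins known to carry O-GalNAc, 0 were called with edgeR, beside 0.351% of all genes. Of the 17, 3 had an unadjusted p under 0.05 (7.11% of all genes did), and the median log2 fold change was −0.21. Dag1, the dystroglycan gene, was counted at 1437, 1014 and 1133 CPM in Gli3+/+ and at 1735, 2261 and 1613 CPM in Gli3Δ/Δ QSCs. Its groups did not overlap, and its log2 fold change of 0.65 ± 0.186 SE had an adjusted p of 0.388 from edgeR. The groups did not overlap for 4 of the 17, beside 13% of all genes tested. The other 3 of these (Podxl, Emcn and Pltp, named after their values were seen) had the lower mean in Gli3Δ/Δ QSCs. Podxl, which encodes the sialomucin podocalyxin, was at 27.7 ± 7.83 and 16.4 ± 2.16 CPM, with a log2 fold change of −0.76 ± 0.219 SE (edgeR adjusted p = 0.396). The receptor genes Lrp1 (1628 ± 32.0 and 1533 ± 150 CPM) and Vldlr (427 ± 100 and 428 ± 26.5 CPM) were not called. Pltp, which encodes a known GALNT2 substrate, was at 5.59 ± 1.203 and 4.10 ± 0.732 CPM (adjusted p = 0.799 from edgeR).

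Other sugar links on proteins were followed in 3 further lists. Over all genes tested, edgeR called 0.351% and gave 7.11% an unadjusted p under 0.05. The 12 genes of the O-mannose glycans of dystroglycan had 0 called genes with edgeR, 0 at an unadjusted p under 0.05 and a median log2 fold change of 0.06. Pomgnt1 (57.4 ± 5.86 and 56.9 ± 2.63 CPM) and B3galnt2 (43.3 ± 3.43 and 44.2 ± 3.07 CPM) were among the genes of this list with the highest CPM. The 9 genes of O-fucose, O-glucose and O-GlcNAc likewise had 0 called and 0 at an unadjusted p under 0.05 (edgeR), at a median of 0.018. Ogt, the O-GlcNAc transferase, was at 518 ± 91.0 and 525 ± 52.5 CPM, Oga, which removes that sugar, at 180 ± 7.39 and 166 ± 12.7 CPM, and Pofut2 at 71.5 ± 6.62 and 70.5 ± 3.99 CPM. Of 10 genes that transfer GalNAc in other linkages, such as chondroitin sulfate, 0 were called and 3 had an unadjusted p under 0.05 (edgeR, 7.11% of all genes), with a median of −0.035. Csgalnact2 (51.8 ± 3.17 and 49.6 ± 2.05 CPM), Chpf (43.7 ± 14.1 and 39.5 ± 2.40 CPM) and Chpf2 (37.6 ± 3.13 and 37.4 ± 7.25 CPM) had the highest mean CPM over both genotypes. Csgalnact1, named after its values were seen, was at 31.3 ± 3.00 and 42.9 ± 4.68 CPM without overlap, with a log2 fold change of 0.45 ± 0.144 SE (edgeR adjusted p = 0.448).

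**Figure D5:**
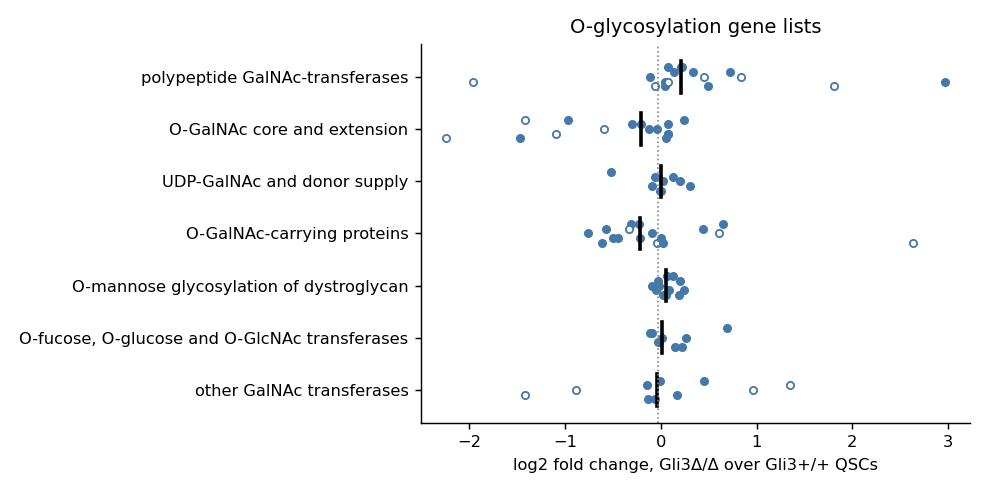
Fitted log2 fold change (Gli3Δ/Δ over Gli3+/+ QSCs) of each gene in 7 lists of O-glycosylation genes, with 1 point per gene, filled for a mean of at least 1 CPM, a bar at each list's median and a dotted line at the median of all genes tested (−0.031). List medians ran from −0.21 to 0.21, and Galnt2, chosen for its difference, stands at 2.97. The 0.21 is the median of the family list with Galnt2 in it, and its 16 other genes had a median of 0.177.

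The 5 genes whose log2(CPM + 1) followed that of Galnt2 most closely over the 6 libraries, among 14696 genes with a mean of at least 1 CPM, were Gm16867, Eif5al3-ps, Nnmt, C1qtnf12 and Gm13301. Their Pearson r ran from 0.991 to 0.995, over libraries that share a genotype split. Gm16867 went from 0.0326 ± 0.0381 to 9.11 ± 1.24 CPM, Gm13301 from 2.66 ± 0.466 to 41.4 ± 12.6 CPM and Eif5al3-ps from 0.15 ± 0.152 to 4.65 ± 0.942 CPM. The share of 31-base words found in other genes was 98.9% for Gm16867, 88% for Gm13301 and 38.8% for Eif5al3-ps. Nnmt, the nicotinamide N-methyltransferase gene (0.278 ± 0.069 to 2.12 ± 0.202 CPM), and C1qtnf12, which encodes a secreted C1q and TNF related protein (6.59 ± 0.293 to 14.8 ± 0.298 CPM), shared 0% of theirs. Within the family, Galnt16 had the highest r with Galnt2, at 0.979.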

How the data were processed

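The authors deposited estimated counts per gene, made with salmon against GRCm38 (GENCODE vM19) transcripts and tximport, after dropping genes with few reads. Of the values, 49.2% were not whole, because reads that fit several transcripts are divided by estimated abundance. Counts were rounded and fitted with edgeR 4.0.16 (quasi-likelihood, TMM, Benjamini-Hochberg over 25093 genes) in R 4.3.3, on the 6 QSC libraries with genotype as the only term. For each gene the SE was the size of its log2 fold change divided by the square root of this fit's F statistic. For Galnt2 that SE is a description and no test. Groups came from the labels. DESeq2 1.42.0, limma 3.58.1 (voom), other scalings, filters, a replicate block and leaving out each library were alternatives. The fits were tested on simulated data. Annotation, lengths and 31-base words came from GENCODE vM21 on GRCm38, in which 96.3% of gene IDs had the same version. Family members Galnt13 and Galntl5 were not analysed here. The 6 ASC columns were not used. Further deposited tables hold the authors' own fold changes and p-values, and were not used either. The names given are the members, the rest of the family, genes overlapping or next to Galnt2, the 5 genes most like it, and of each list any called gene or otherwise the 3 highest by CPM, some of which are not reported here. Members and lists were chosen with earlier results of these data known. An exact permutation test of 3 libraries against 3 cannot go below p = 0.1 and was not used.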

Additional observations from a re-analysis of the deposited data

How the results depend on the processing

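Summing Galnt2 with Gm20388 moved the log2 fold change of Galnt2 from 2.97 to 0.089 and its mean from 3.73 to 107 CPM in Gli3+/+ and from 29.2 to 114 CPM in Gli3Δ/Δ QSCs. By its construction, that sum removes the division of reads between Galnt2 and Gm20388. It does not remove a division of exon 1 reads between Gm20388 and Usp10. Leaving out each library in turn gave Galnt2 alone a log2 fold change of 2.81 to 3.08. That range is a description only, since Galnt2 was chosen for its difference in these libraries. The count of genes called, 88, became 384 with DESeq2 and 48 with at least 10 counts required in every library. Without each library in turn it ran from 58 (without Gli3Δ/Δ replicate 3) to 103. DESeq2 also raised the calls among the family other than Galnt2 from 0 to 1 (Galnt16) and those of core and extension enzymes from 0 to 1 (St6galnac2). The cause of the DESeq2 difference was not tested. Over 182 values of the 16 other family genes, 1 call changed and 22 had the other sign, all among genes not called. Per kb of the longest transcript, Galnt1 stood at 17.4, Galnt11 at 12.6 and Galnt16 at 8.97 CPM per kb in Gli3+/+ cells, which changes the order of the members. Libraries of the same number had correlated deviations of −0.276, −0.0196 and −0.0642, and 0 libraries were closest to their own number. These values show no pairing by number, but 3 libraries per genotype are too few to exclude one. A replicate block gave 79 calls. Galnt3 had at most 13 counts in a library, and its SE of 0.749 on the log2 scale limits what its values can show.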

Other observations

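Sharing of sequence with other genes was not limited to Galnt2 among the genes called between the genotypes. Of the 88 called genes, 47 (53.4%) had over 50% of their 31-base words in a transcript of another gene, with a median of 54.4%. Over the 25080 genes of the table with an annotated transcript, 3345 (13.3%) did, with a median of 3.36%. This comparison was made after the values were seen and carries no test. The members differ in this respect from Galnt2. Galnt10, Galnt12 and Galnt18 shared 0% of their words, Galnt3 0.756%, Galnt7 1.35%, Galnt1 5.52%, Galnt11 7.23%, Galnt16 7.6% and Galnt4 7.73%.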
